A study of Mus musculus with 18 samples.

Results

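The genes described here are 34 members of the sterol and fatty acid synthesis pathways that are under the control of the sterol regulatory element-binding proteins (SREBPs). They were listed by name, with earlier results of these data known, among the 24421 genes counted in both cell types, and all 34 were found. Of these, 24 belong to the sterol branch and 10 to the fatty acid branch, and the branches are described apart. RNA was sequenced from microglia, the resident macrophages of the brain, and from astrocytes, the glial cells that supply neurons with lipid and take up transmitter. Both were sorted by flow cytometry from dissociated whole brains of 9 untreated C57BL/6j mice, so that every mouse gave a library of microglia and a library of astrocytes. The WT group had 4 mice (1 female, 3 males). The other group had 5 mice (1 male, 4 females) of the genotype labelled APP_NLGF/NLGF, called APP here. These mice carry familial Alzheimer mutations and a humanised amyloid-beta sequence knocked into the mouse App gene, so that the protein is made from its own promoter and not from a transgene. All library names carry C3WT, and no library with a C3 deletion was analysed here. The labels used here give no age. The replicates were separate mice.

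SREBP-2, encoded by Srebf2, turns on the genes that make cholesterol from acetyl-CoA, while SREBP-1c, a product of Srebf1, acts mainly on fatty acid genes. Both proteins are held in the endoplasmic reticulum membrane by the escort Scap and the retention proteins Insig1 and Insig2 until membrane sterol falls, when they are carried to the Golgi, cut and sent to the nucleus. In the adult brain cholesterol is made locally, since lipoprotein cholesterol does not cross the blood-brain barrier, and astrocytes are a main producer.

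Library totals ran from 8834866 to 11700620 counts in WT microglia, 11858295 to 18363154 in APP microglia, 10569776 to 21865752 in WT astrocytes and 18125387 to 22522407 in APP astrocytes. All 34 members passed the filter on low counts in both cell types. The labelled cell types were checked against defining markers. The summed level of 6 microglial markers was 27351 to 35840.0 CPM (counts scaled to a common library size) in WT microglia and 245 to 276 in WT astrocytes. The summed level of 6 astrocyte markers was 27386 to 38277 CPM in WT astrocytes and 593 to 1596 in WT microglia. WT astrocyte replicates 1 and 4 stood apart from the other libraries of their cell type. Their summed level of 8 endothelial markers was 408 and 354 CPM, against 2475 and 1942 CPM in WT replicates 2 and 3 and 1826 to 2838 CPM in APP. WT replicate 1 is also the only WT female, so that results are given with and without it below. CPM values were scaled within each cell type unless stated, errors of levels are SDs over 4 WT or 5 APP libraries, and replicates are listed in the order of their numbers.

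The promoters of 4 sterol genes that were called in both cell types are shown first, because the letters that SREBP-2 and its partner factors are known to read can be looked for in them. Each is the stretch of 250 bases before the transcription start in the RefSeq annotation of GRCm38.p6, the assembly also called mm10, written 5′ to 3′ on the gene's own strand. Capitals mark a sterol regulatory element core (TCACNCCAC or, in the form that begins 1 base earlier, ATCACNCCA), a CCAAT box (CCAAT) and an E-box (CACGTG), each searched on both strands; a CCAAT box on the other strand reads ATTGG. Hmgcs1 (chr13:119690101-119690350, plus strand), Srebf2 (chr15:82147019-82147268, plus strand), Cyp51 (chr5:4104698-4104947, minus strand) and Insig1 (chr5:28071162-28071411, plus strand) are given in this order.
Hmgcs1: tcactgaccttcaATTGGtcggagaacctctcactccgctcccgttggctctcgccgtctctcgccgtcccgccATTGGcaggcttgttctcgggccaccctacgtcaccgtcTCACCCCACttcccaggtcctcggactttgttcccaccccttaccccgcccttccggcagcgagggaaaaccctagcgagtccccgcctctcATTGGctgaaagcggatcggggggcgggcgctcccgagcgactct
Srebf2: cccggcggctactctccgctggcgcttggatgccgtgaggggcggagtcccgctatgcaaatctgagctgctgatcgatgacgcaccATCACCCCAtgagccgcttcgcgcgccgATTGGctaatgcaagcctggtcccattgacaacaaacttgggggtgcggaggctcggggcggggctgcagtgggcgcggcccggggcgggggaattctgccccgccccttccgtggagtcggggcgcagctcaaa
Cyp51: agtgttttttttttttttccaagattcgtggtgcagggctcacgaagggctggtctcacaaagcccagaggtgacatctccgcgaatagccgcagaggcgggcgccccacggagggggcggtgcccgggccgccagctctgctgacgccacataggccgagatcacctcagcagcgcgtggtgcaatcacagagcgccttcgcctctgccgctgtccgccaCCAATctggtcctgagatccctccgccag
Insig1: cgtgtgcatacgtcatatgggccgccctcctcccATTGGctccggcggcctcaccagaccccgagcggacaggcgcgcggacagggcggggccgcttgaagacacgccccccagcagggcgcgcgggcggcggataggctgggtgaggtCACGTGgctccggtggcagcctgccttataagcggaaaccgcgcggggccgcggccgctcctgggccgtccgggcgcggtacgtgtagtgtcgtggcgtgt

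RefSeq windows of 250 bases before to 50 after a start were at hand for 20 sterol members (26 windows) and 7 fatty acid members (9 windows), and the same letters were sought in all 32851 windows of the mouse table. The core TCACNCCAC was in the Hmgcs1 window alone among the members' windows, and in 1.24% of all windows. ATCACNCCA was in the Srebf2 window alone among them, and in 0.868% of all. CCAAT was in 18 of the 26 sterol windows (69.2%) and 5 of the 9 fatty acid windows (55.6%), against 37.4% of all windows. The longer form GATTGG, which contains a CCAAT box on the other strand, was in 16 of the 26 sterol windows (61.5%) and 2 of the 9 fatty acid windows (22.2%), against 16.1% of all. The GC box GGGCGG was in 21 sterol windows (80.8%) and 5 fatty acid windows (55.6%), against 35.7% of all. CACGTG was in 6 of the 26 sterol windows (23.1%) and 0 of the 9 fatty acid windows, against 7.15% of all. The sterol genes with it were Dhcr7, Hsd17b7, Insig1, Sc5d and Scap. These are matches of letters, with no measure of binding in these data.

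In APP mice the sterol branch moved in opposite directions in the 2 cell types: 12 of its 24 genes rose in microglia and 18 fell in astrocytes, and 11 did both. The genes that rose in the one and fell in the other were Hmgcs1, Pmvk, Fdps, Fdft1, Cyp51, Msmo1, Hsd17b7, Sc5d, Dhcr7, Srebf2 and Insig1. The fatty acid branch was less uniform. In APP microglia Srebf1, Acaca, Fasn and Scd2 rose and Fads1 fell. In APP astrocytes Acly, Acss2 and Elovl6 fell and the other 7 did not pass the test. The verbs rose and fell are used where the adjusted p was under 0.05 (called) in edgeR's quasi-likelihood test with sex as a covariate, adjusted over all genes tested. Log2 differences are fitted values that allow for sex, and can differ from the ratio of 2 group means. As background, 19.1% of the 13116 genes tested in microglia were called higher in APP and 19.2% lower, and 12.1% of the 14957 genes tested in astrocytes were called higher and 13.5% lower. The median log2 difference of the sterol genes was 0.55 in microglia and -0.79 in astrocytes, and that of the fatty acid genes was 0.37 and -0.32, beside 0.01 over all genes tested in each cell type. Without scaling between libraries beyond their totals, the median over all genes in astrocytes shifted up by 0.20, and 2254 genes were called higher and 828 lower, against 1812 and 2024 with it. The sterol and fatty acid genes called lower there were then 15 and 1. Without WT replicate 1, edgeR's test with sex as a covariate called 6 sterol genes in microglia and 0 in astrocytes, where 17 had an unadjusted p under 0.05. Without both this library and the sex term the test called 12 sterol genes higher in microglia and 16 lower in astrocytes. The counts without WT replicate 1 are given here without the share of all genes called in the same fits.

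**Figure D1:**
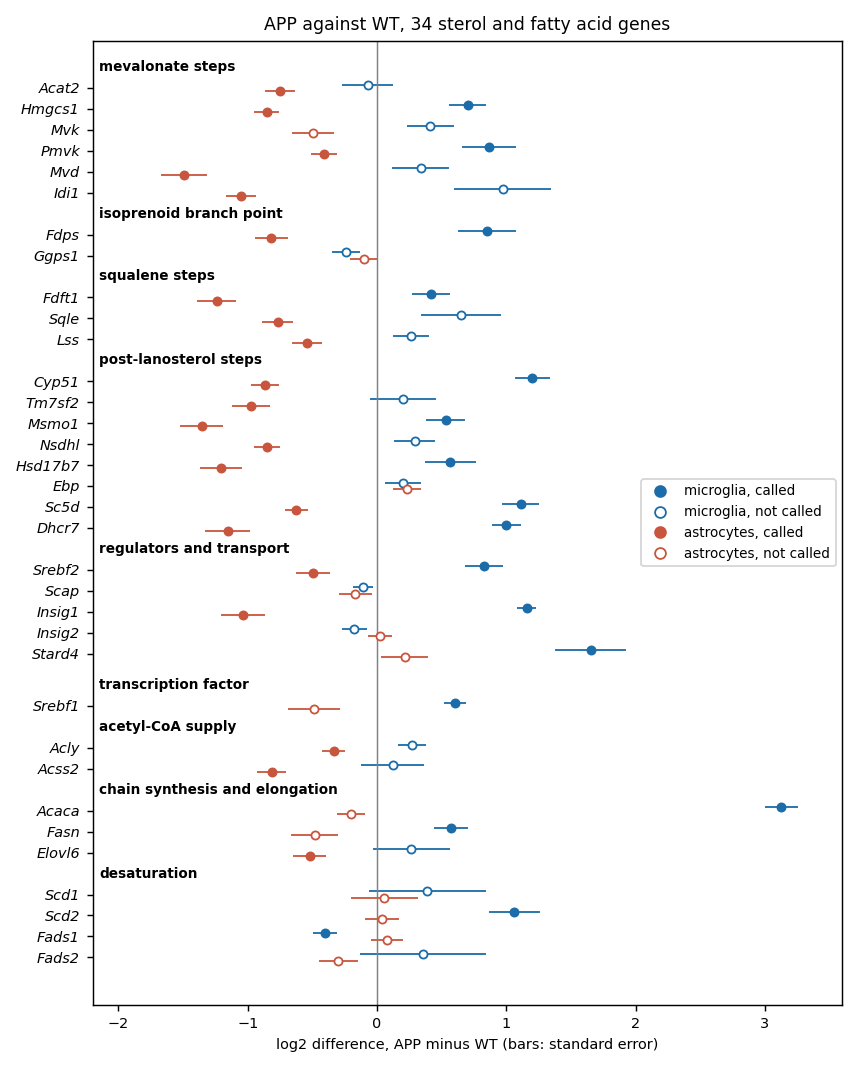
Log2 difference between APP and WT mice (x axis, with the standard error) for each of the 34 genes (y axis, grouped by step of the pathway) in microglia (blue) and astrocytes (red); filled points passed the test. Most sterol genes lie to the right of 0 in microglia and to the left in astrocytes, and Acaca in microglia (3.13) is farthest from 0.

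Seen as a sum, the 24 sterol genes stood at 487, 552, 551 and 579 CPM in WT microglia and at 707, 754, 807, 790.2 and 866 CPM in APP microglia. Every APP library lay above every WT library. In astrocytes the same sum was 4438, 3216, 3145 and 4068 CPM in WT and 2143, 2203, 2528, 2149.9 and 2455 CPM in APP. Here every APP library lay below every WT library, and WT replicates 1 and 4 were the highest. In bulk libraries of sorted cells, fewer cells that express a gene and less RNA per cell cannot be told apart.

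The mevalonate steps build the isoprenoid unit from acetyl-CoA. Hmgcs1, the synthase that makes HMG-CoA, was at 35.5, 51.6, 54.3 and 44.5 CPM in WT microglia and 65.8, 65.4, 67.7, 75.8 and 79.2 CPM in APP microglia. The groups did not overlap, and the log2 difference was 0.70 ± 0.14 (SE, adjusted p = 0.0022). In astrocytes Hmgcs1 was at 429.9, 373, 389.6 and 427 CPM in WT and 221, 228, 268, 215 and 235 CPM in APP, a fall to 0.554 of the WT level with no overlap (log2 -0.85 ± 0.096, adjusted p = 0.0022). Pmvk, the kinase that adds the second phosphate to mevalonate, rose from 5.00 ± 0.803 to 9.09 ± 1.47 CPM in microglia (log2 0.87 ± 0.21, adjusted p = 0.006) and fell from 16.2 ± 0.506 to 12.5 ± 0.677 CPM in astrocytes (log2 -0.41 ± 0.097, adjusted p = 0.019). Mvd, the decarboxylase that ends the series, had the largest fall of the branch in astrocytes. It was at 69.9, 38.1, 46.0 and 56.5 CPM in WT and 18.1, 18.3, 27.8, 20.8 and 25.3 CPM in APP astrocytes, 2.81-fold lower (log2 -1.49 ± 0.18, adjusted p = 0.0026). In microglia its log2 difference was 0.34 ± 0.22 and did not pass (adjusted p = 0.25). Acat2, the cytosolic acetyl-CoA acetyltransferase that opens the pathway, fell in astrocytes (log2 -0.75 ± 0.11) and had levels of 7.45 ± 1.48 CPM in WT microglia and 6.91 ± 0.472 CPM in APP microglia. Idi1, the isomerase of the isoprenoid unit, fell from 17.4 ± 1.61 to 8.57 ± 0.424 CPM in astrocytes. In microglia it was a low-count gene, at 0.758, 1.69, 2.05 and 1.43 CPM in WT and 2.17, 2.49, 3.09, 2.80 and 2.48 CPM in APP, where the groups did not overlap but the test did not pass (log2 0.97 ± 0.38, adjusted p = 0.062). Without WT replicate 1 the log2 difference of Hmgcs1 was 0.39 (adjusted p = 0.08) in microglia and -0.86 (adjusted p = 0.1) in astrocytes, that of Pmvk 0.77 (adjusted p = 0.086) and -0.44 (adjusted p = 0.22), and that of Mvd in astrocytes -1.39 (adjusted p = 0.12). Mevalonate kinase, Mvk, did not pass in either cell type (log2 0.41, adjusted p = 0.092 in microglia and log2 -0.50, adjusted p = 0.052 in astrocytes).

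At the branch point to other isoprenoids, Fdps was called in both cell types and Ggps1 in neither. Fdps makes farnesyl pyrophosphate, the last compound shared by sterols and protein prenylation. It was at 5.09, 4.99, 5.84 and 6.16 CPM in WT and 8.11, 9.87, 11.0, 10.8 and 15.2 CPM in APP microglia (log2 0.85 ± 0.22, adjusted p = 0.01), and at 38.6, 35.9, 33.1 and 41.8 CPM in WT and 21.6, 19.2, 21.6, 19.1 and 24.9 CPM in APP astrocytes (log2 -0.82 ± 0.13, adjusted p = 0.0056). Neither pair of groups overlapped. Ggps1, which lengthens farnesyl pyrophosphate for prenylation of proteins, did not pass in microglia or in astrocytes, with 95% intervals of the log2 difference of -0.47 to -0.01 and -0.35 to 0.15. In the GENCODE M21 annotation 77.4% of the exon bases of Fdps are shared with Gm43738 on the same strand, so that the counts of Fdps are uncertain. Its log2 difference without WT replicate 1 was 0.52 (adjusted p = 0.23) in microglia and -0.79 (adjusted p = 0.15) in astrocytes.

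The squalene steps commit the pathway to sterols. Fdft1, squalene synthase, was at 275, 168, 186 and 246 CPM in WT and 88.0, 93.8, 119.5, 107 and 127 CPM in APP astrocytes, 2.36-fold lower (log2 -1.24 ± 0.15, adjusted p = 0.0027). In microglia it was at 12.2, 15.5, 15.0 and 16.4 CPM in WT and 16.5, 19.6, 21.3, 21.3 and 21.3 CPM in APP (log2 0.42 ± 0.15, adjusted p = 0.045). The microglial groups all but met, at WT replicate 4 and APP replicate 1. The log2 difference of Fdft1 without WT replicate 1 was 0.07 (adjusted p = 0.79) in microglia and -1.21 (adjusted p = 0.12) in astrocytes, and the microglial call was also lost without any one of WT replicates 2 and 3 and APP replicates 2 to 5. A share of 20.9% of the exon bases of Fdft1 lies opposite exons of the cathepsin gene Ctsb, and the sources used here do not say whether the counting used the strand. Sqle, the epoxidase that adds oxygen to squalene, fell in astrocytes from 243 ± 28.9 to 149.6 ± 16.8 CPM (log2 -0.77 ± 0.12). In microglia it was at 4.98, 12.7, 10.1 and 8.22 CPM in WT and 9.78, 12.9, 15.5, 12.6 and 15.1 CPM in APP, where the groups overlapped and the test did not pass (adjusted p = 0.12). Lss, which folds squalene epoxide into lanosterol, fell in astrocytes (log2 -0.54 ± 0.12, adjusted p = 0.015), although its groups overlapped there.

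Of the 8 genes that turn lanosterol into cholesterol, 5 rose in microglia and 7 fell in astrocytes. Of all genes tested, 19.1% rose in microglia and 13.5% fell in astrocytes. Cyp51, the lanosterol demethylase, was at 15.7, 23.5, 18.7 and 21.7 CPM in WT and 40.7, 41.1, 46.3, 44.4 and 46.6 CPM in APP microglia, 2.30-fold higher (log2 1.20 ± 0.13, adjusted p = 3.3e-05). Its lowest APP library stood well above its highest WT library. In astrocytes Cyp51 was at 218, 167, 154 and 172 CPM in WT and 98.5, 105, 126, 95.7 and 112 CPM in APP (log2 -0.87 ± 0.11, adjusted p = 0.0029). Dhcr7, the reductase that makes cholesterol from its last precursor in one arm of the pathway, was at 22.1, 23.6, 23.1 and 26.4 CPM in WT and 43.0, 46.2, 52.0, 47.6 and 55.8 CPM in APP microglia (log2 1.00 ± 0.11, adjusted p = 3.6e-05). It was at 323, 202, 187 and 285 CPM in WT and 114, 112, 133, 117 and 156 CPM in APP astrocytes (log2 -1.16 ± 0.17, adjusted p = 0.0051). The groups were apart in both cell types, and the WT astrocyte libraries spread more widely than the others. When WT replicate 1 was left out, both genes were still called in microglia, and in astrocytes the log2 difference of Cyp51 was -0.76 (adjusted p = 0.12) and that of Dhcr7 -1.003 (adjusted p = 0.17). Sc5d, the desaturase that acts just before Dhcr7, rose 2.16-fold in microglia, from 16.4 ± 2.37 to 35.4 ± 3.40 CPM, and fell 1.54-fold in astrocytes, from 125 ± 14.3 to 88.6 ± 8.06 CPM.

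Msmo1, the C-4 methyl oxidase, had the highest level of the sterol genes per length in astrocytes. It was at 744, 489, 434 and 673 CPM in WT and 205, 257, 308, 271 and 339 CPM in APP astrocytes, 2.56-fold lower (log2 -1.36 ± 0.16, adjusted p = 0.0027). In microglia it rose less, from 31.6 ± 3.80 to 48.1 ± 6.86 CPM (log2 0.53 ± 0.15, adjusted p = 0.016). Hsd17b7, a reductase of the same demethylation steps, rose in microglia (log2 0.57 ± 0.20) and fell in astrocytes (log2 -1.21 ± 0.16), in groups that did not overlap in either cell type. Leaving out WT replicate 1 gave Msmo1 a log2 difference of 0.14 (adjusted p = 0.49) in microglia and -1.40 (adjusted p = 0.11) in astrocytes, and Hsd17b7 one of 0.50 (adjusted p = 0.25) and -1.10 (adjusted p = 0.14). Nsdhl, the decarboxylating enzyme between them, and Tm7sf2, the C-14 reductase, fell in astrocytes (log2 -0.85 ± 0.10 and -0.98 ± 0.15) and did not pass in microglia (log2 0.29 ± 0.16 and 0.20 ± 0.26). Ebp, the isomerase of the late steps, did not pass in either cell type (log2 0.20 ± 0.14 and 0.23 ± 0.11), with libraries at 28.2 to 39.9 CPM in WT and 33.7 to 41.5 CPM in APP microglia.

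**Figure D2:**
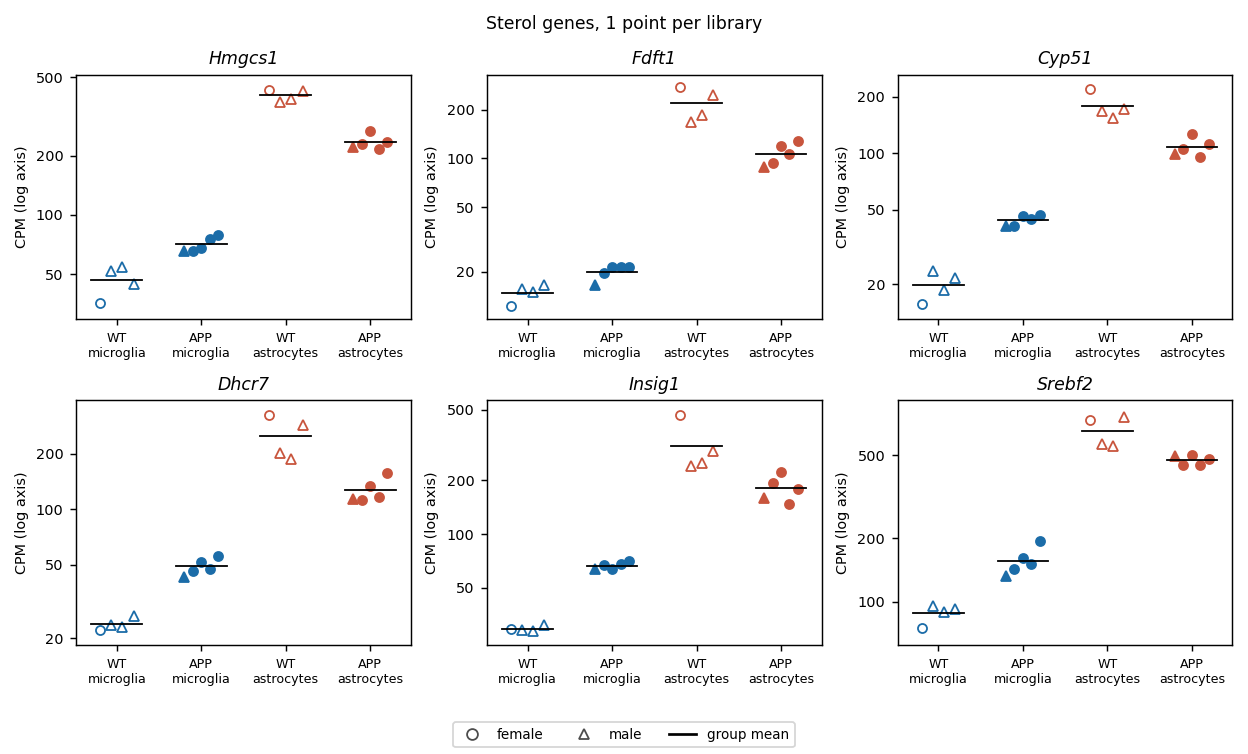
CPM on a log axis (y axis) of 6 sterol genes in each library of the 4 groups (x axis), with females as circles, males as triangles and the group mean as a line. For Insig1, WT microglia lie at 28.5 to 30.6 CPM and APP microglia at 63.3 to 70.3 CPM, while the WT astrocyte female (469.8 CPM) is the highest library of its group.

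Among the regulators, the transcription factor and one of the retention proteins moved with the enzymes, and the escort did not. Srebf2 was at 74.5, 95.2, 89.2 and 92.4 CPM in WT and 133, 142, 162, 152 and 195 CPM in APP microglia (log2 0.83 ± 0.14, adjusted p = 8.7e-04). In astrocytes it was at 735, 565, 549.6 and 759.6 CPM in WT and 496, 449.5, 503, 449 and 478 CPM in APP (log2 -0.49 ± 0.13, adjusted p = 0.028). Neither pair overlapped, and the fall in astrocytes was the second smallest of the 18 sterol falls. Insig1, itself a target of SREBP, is encoded at chr5:28071412-28078662 (GRCm38). It was at 29.1, 28.8, 28.5 and 30.6 CPM in WT and 63.3, 66.9, 63.7, 68.0 and 70.3 CPM in APP microglia, 2.23-fold higher (log2 1.16 ± 0.075, adjusted p = 5.5e-07), with little spread in either group. In astrocytes it was at 469.8, 239.8, 250.1 and 293 CPM in WT and 159.5, 195, 222, 147 and 178 CPM in APP (log2 -1.04 ± 0.17, adjusted p = 0.0066). WT astrocyte replicates 2 and 3 lay just above the highest APP library. Without WT replicate 1 Srebf2 and Insig1 were still called in microglia, and in astrocytes their log2 differences were -0.35 (adjusted p = 0.42) and -0.73 (adjusted p = 0.18). Insig2, the other retention protein, which is not under the same feedback in most tissues, was at 32.1 ± 2.84 and 27.6 ± 1.56 CPM in WT and APP microglia and at 31.7 ± 1.95 and 32.4 ± 2.13 CPM in astrocytes, and did not pass in either. The escort Scap did not pass in either cell type, with 95% intervals of the log2 difference of -0.28 to 0.06 in microglia and -0.46 to 0.12 in astrocytes.

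Stard4, a cytosolic carrier that moves cholesterol between membranes, had the largest rise of the sterol branch in microglia. It was at 2.27, 4.58, 5.95 and 5.00 CPM in WT and 10.8, 11.0, 13.3, 12.6 and 14.2 CPM in APP microglia, 3.14-fold higher (log2 1.65 ± 0.27, adjusted p = 5.6e-04), with no overlap. In astrocytes it did not pass, with 19.3 to 32.2 CPM in WT and 25.4 to 31.04 CPM in APP (log2 0.21 ± 0.18, adjusted p = 0.39).

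By libraries, 13 of the 24 sterol genes had every APP microglial library above every WT one, beside 19.8% of all genes tested. In astrocytes 18 had every APP library below every WT one, beside 11.5% of all genes. The opposite orders, all APP below all WT in microglia and all above in astrocytes, were met by 19.2% and 9.91% of all genes.

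Whether the response differed between the cell types was tested directly, as the interaction of cell type and genotype over all 18 libraries. A higher value means a response higher in microglia than in astrocytes, and 12.5% of the 15550 genes tested were called in that direction and 8.91% in the other. The difference passed for 20 of the 24 sterol genes and 6 of the 10 fatty acid genes, all with a higher response in microglia. Among the sterol genes it was largest for Insig1 (log2 2.24 ± 0.20, adjusted p = 2.1e-06), Dhcr7 (2.20 ± 0.23), Cyp51 (2.12 ± 0.20) and Idi1 (2.02 ± 0.33). Ggps1, Ebp, Scap and Insig2 did not pass, at log2 differences from -0.15 to 0.11. Among the fatty acid genes it passed for Acaca (3.37 ± 0.18), Srebf1 (1.14 ± 0.24), Fasn (1.10 ± 0.27), Scd2 (1.07 ± 0.29), Acss2 (0.96 ± 0.27) and Acly (0.66 ± 0.15). With the mouse as a block the count of sterol genes was again 20, and Acss2 no longer passed, which left 5 fatty acid genes. Without WT replicate 1 it passed for 11 sterol genes and 1 fatty acid gene, Acaca, and without WT replicates 1 and 4 for 9 and 1. These counts are given without the share of all genes called in the same fits. A call of 1 of the 10 fatty acid genes is no result about that branch. Without scaling beyond library totals, 971 genes were called higher and 2297 lower, against 1943 and 1385 with it, and the median over all genes shifted by -0.25, while 19 sterol genes were called higher.

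In the fatty acid branch the transcription factor Srebf1 was at 67.0, 83.2, 82.1 and 79.9 CPM in WT and 116, 104, 103, 119 and 109 CPM in APP microglia (log2 0.60 ± 0.082, adjusted p = 1.4e-04). The groups did not overlap, and WT replicate 1 was the lowest library. In astrocytes Srebf1 was at 1301, 816, 834 and 1362 CPM in WT and 858, 802, 822, 673 and 837 CPM in APP. WT replicates 2 and 3 lay within the range of the APP libraries and WT replicates 1 and 4 far above it, and the test did not pass (log2 -0.49 ± 0.20, adjusted p = 0.097). The counts do not separate the SREBP-1a and SREBP-1c transcripts.

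The 2 genes that supply cytosolic acetyl-CoA, Acly and Acss2, were called lower in astrocytes, and neither was called there without WT replicate 1. Acly, which splits citrate in the cytosol, was at 241, 227, 232 and 256 CPM in WT and 198, 184, 199, 163 and 183 CPM in APP astrocytes (log2 -0.34 ± 0.09, adjusted p = 0.027). Acss2, which makes acetyl-CoA from acetate, was at 171, 135, 135 and 172 CPM in WT and 85.9, 85.4, 103, 91.3 and 98.8 CPM in APP astrocytes, 1.76-fold lower (log2 -0.81 ± 0.11, adjusted p = 0.0037). Neither pair overlapped. The log2 difference without WT replicate 1 was -0.28 (adjusted p = 0.34) for Acly and -0.79 (adjusted p = 0.14) for Acss2. In microglia neither gene passed (log2 0.27 ± 0.11 for Acly and 0.12 ± 0.24 for Acss2).

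Acaca, acetyl-CoA carboxylase 1, makes the malonyl-CoA from which fatty acids are built, and it had the largest change of all 34 genes. It is encoded at chr11:84129635-84401651 (GRCm38). In microglia it was at 21.3, 21.7, 17.3 and 18.1 CPM in WT and 173, 160.2, 158, 192 and 208 CPM in APP, 8.74-fold higher (log2 3.13 ± 0.12, adjusted p = 1.2e-08). The 2 groups were far apart, and the APP microglial libraries also lay above all astrocyte libraries on the scale set over all 18 libraries, at 173 to 228 CPM against 85.6 to 115 CPM. In astrocytes Acaca was at 94.6 to 125 CPM in WT and 93.4 to 106 CPM in APP and did not pass (log2 -0.20 ± 0.11, adjusted p = 0.18). Fasn, the synthase that uses malonyl-CoA, was at 70.4, 99.6, 94.1 and 76.5 CPM in WT and 119, 97.0, 115, 129 and 128 CPM in APP microglia (log2 0.57 ± 0.13, adjusted p = 0.0056). Its groups overlapped by 1 library, APP replicate 2, and without WT replicate 1 the log2 difference was 0.40 (adjusted p = 0.14). In astrocytes every APP library of Fasn lay below every WT library, 839 to 1185 against 1197 to 1743 CPM, but the test did not pass (log2 -0.48 ± 0.18, adjusted p = 0.076). Elovl6, which lengthens the product of Fasn, fell in astrocytes from 65.8 ± 8.46 to 47.9 ± 5.20 CPM (log2 -0.52 ± 0.13, adjusted p = 0.02) and was at only 2.38 to 4.33 CPM in WT microglia. In astrocytes the log2 difference of Elovl6 without WT replicate 1 was -0.36 (adjusted p = 0.33).

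The desaturases were mixed. Scd2, the main stearoyl-CoA desaturase of the brain, was at 234, 438, 351 and 299 CPM in WT and 615, 480.1, 543, 751 and 622 CPM in APP microglia, 2.09-fold higher (log2 1.06 ± 0.20, adjusted p = 0.0012). The groups did not overlap. In astrocytes it was at 4729.9 to 5644 CPM in WT and 5221 to 5895 CPM in APP, and the 95% interval of the log2 difference was -0.26 to 0.34. Fads1, the delta-5 desaturase of long polyunsaturated fatty acids, was the only member that fell in microglia, from 129.8, 137, 141 and 158 CPM in WT to 101, 97.9, 107, 115 and 108 CPM in APP (log2 -0.40 ± 0.092, adjusted p = 0.0049). Its groups did not overlap there, and without APP replicate 1, the only APP male, the log2 difference was -0.27 (adjusted p = 0.093). In astrocytes Fads1 did not pass (log2 0.08 ± 0.13). In both cell types neither Scd1 nor Fads2, the delta-6 desaturase, passed. Scd1 and Scd2, both on chromosome 19, are close paralogs in sequence, so that reads may be split between them, which was not tested. Hmgcs1, Idi1, Lss, Cyp51, Scap, Srebf1 and Acss2 each share 0.340% to 18.6% of their exon bases with a gene on the opposite strand, and carry the same uncertainty as Fdft1.

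**Figure D3:**
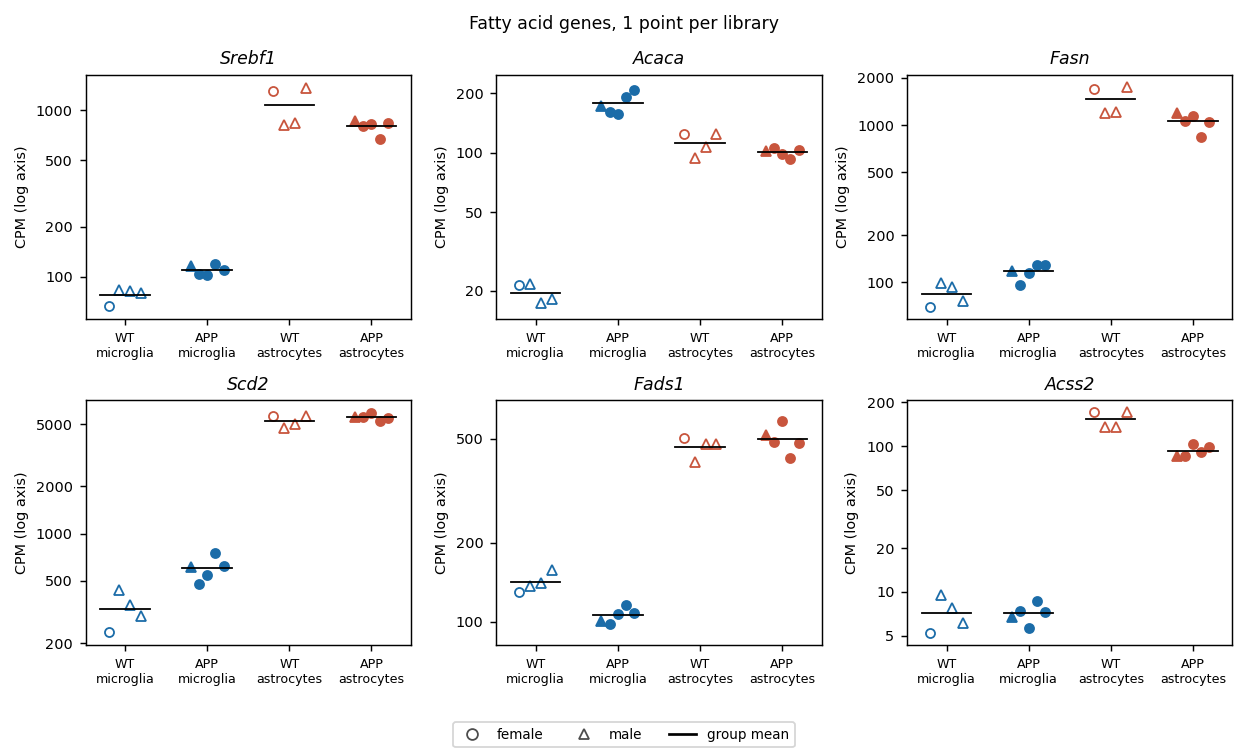
CPM on a log axis (y axis) of 6 fatty acid genes in each library of the 4 groups (x axis), drawn as in the plot of sterol genes by library. Acaca in APP microglia (158 to 208 CPM) is far above WT microglia (17.3 to 21.7 CPM), whereas Scd2 in astrocytes lies at 4729.9 to 5644 CPM in WT and 5221 to 5895 CPM in APP.

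Several members with high astrocyte levels tracked the astrocyte markers within the microglial libraries. The summed level of 6 astrocyte markers was 593, 1596, 1136 and 720.2 CPM in WT and 874, 687, 719, 1520.0 and 436 CPM in APP microglia. Fads2 was at 7.36, 26.8, 18.6 and 9.65 CPM in WT and 15.4, 11.97, 12.8, 27.6 and 9.76 CPM in APP microglia, and Scd1 at 6.71, 28.5, 19.2 and 12.1 CPM in WT and 19.6, 8.01, 13.4, 22.3 and 7.10 CPM in APP microglia. WT replicates 2 and 3 and APP replicate 4 were high for the markers and for both genes. Sqle, Elovl6 and Acss2 were also higher in WT replicates 2 and 3 than in WT replicates 1 and 4. Among APP microglia, replicate 4 had the most astrocyte markers and replicate 5 the fewest. In that group Elovl6 (4.92 CPM) and Acss2 (8.63 CPM) were highest in replicate 4. Sqle was higher in APP replicate 5 (15.1 CPM) than in APP replicate 4 (12.6 CPM). Scd2 and Fasn had the same order among the 4 WT libraries as these markers. Among APP microglia Scd2 (751 CPM) and Fasn (129 CPM) were highest in replicate 4, with the most astrocyte markers. In APP replicate 5, with the fewest astrocyte markers of all microglial libraries, they were at 622 and 128 CPM, above every WT library. The part of astrocyte RNA in these levels was not tested. Of the 6 astrocyte markers, 1 rose in APP microglia and the other 5 did not pass. In the same libraries 5 of the 6 microglial markers fell, from a summed 30813 ± 3599 to 22482 ± 1261 CPM. Of 4 border macrophage markers 3 fell, with sums of 331 to 349 CPM in WT and 59.1 to 127 CPM in APP microglia. Of 4 markers of ependyma and choroid plexus 3 rose, with sums of 8.23 to 268 and 177 to 340.5 CPM. Of 6 oligodendrocyte markers 2 rose (183 to 442 and 343 to 716 CPM). Of 3 markers of their precursors 1 rose and 1 had a log2 difference below 0, with log2 differences from -0.68 to 4.09. Their sums were 3.57 to 22.9 and 109 to 184 CPM. Whether the numbers of such cells differed, and their part in the rise of the sterol genes, was not tested.

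Markers of some other cell types differed with genotype in the astrocyte libraries too. The part of such cells in the fall of the sterol genes was not tested. Of the 6 astrocyte markers 4 fell and 1, Gfap, rose, and their sum was 38277, 28261, 27386 and 36584 CPM in WT and 20489, 23196, 23872, 24263 and 23689 CPM in APP. The sum of the sterol genes and that of the astrocyte markers had the same 2 libraries highest, WT replicates 1 and 4. The 8 endothelial markers did not pass the test, though all 8 log2 differences were above 0, and their sum overlapped between WT (354 to 2475 CPM) and APP (1826 to 2838 CPM). The mean log2 endothelial marker level was also added to the fit as a covariate. Then 12 of the 24 sterol genes were still called lower, and 1 of the 10 fatty acid genes, Acss2. The endothelial sum was low only in WT replicates 1 and 4, so this fit cannot tell a part of endothelium from that of genotype. Of 4 markers of ependyma and choroid plexus 2 rose and all 4 log2 differences were above 0, with sums of 84.6 to 1164 CPM in WT and 686 to 1216 CPM in APP astrocytes. Of 6 microglial markers 4 rose and 1 fell. Of 3 precursor markers 1 rose and 1 had a log2 difference below 0. Summed markers of mural cells were at 698 to 1883 CPM in WT and 2005 to 2402 CPM in APP astrocytes, but none of the 6 passed the test. Summed markers of microglia were at 245 to 276 and 317 to 356 CPM, and those of oligodendrocyte precursors at 115 to 250.3 and 288 to 342 CPM. Those of oligodendrocytes were at 619 to 761 and 712 to 3648 CPM, and none of these 6 passed either. The border macrophage marker Lyve1 was at 0 in 2 WT and 1 APP astrocyte libraries.

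**Figure D4:**
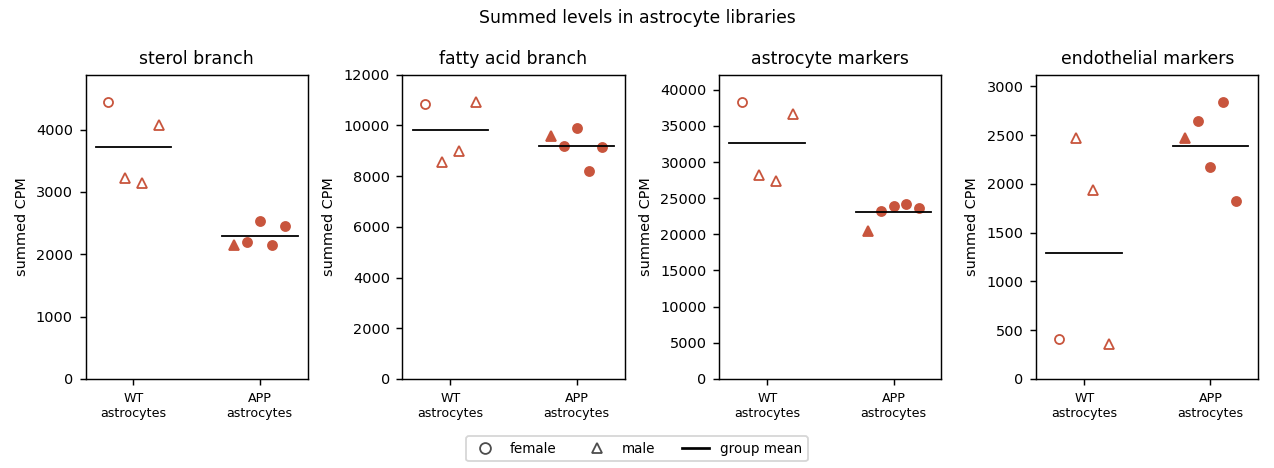
Summed CPM (y axis, from 0) of the 24 sterol genes, the 10 fatty acid genes, 6 astrocyte markers and 8 endothelial markers in each astrocyte library (x axis: WT and APP), with females as circles, males as triangles and the group mean as a line. The sterol sum is 3145 to 4438 CPM in WT and 2143 to 2528 CPM in APP, and the 2 WT libraries with the highest sterol and astrocyte sums have the lowest endothelial sums.

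The results lean on WT replicate 1, the only WT female. It was the lowest of the 4 WT microglial libraries for 11 of the 24 sterol and 9 of the 10 fatty acid genes, and the highest of the 4 WT astrocyte libraries for 14 and 4 of them. Without it, the test with sex as a covariate rests on 3 WT males and 1 APP male. Then 6 of the 24 sterol and 4 of the 10 fatty acid genes were called in microglia. The microglial counts of this and the following refits are given without the share of all genes called. They are no result about the branches by themselves. In astrocytes edgeR called 0 sterol and 0 fatty acid genes, and 34 genes in all, while 17 sterol genes and 1 fatty acid gene had an unadjusted p under 0.05 and all 21 members called with every library kept their direction. Without this library and without the sex covariate, 12 sterol genes were called higher and 1 lower in microglia, with 5 fatty acid genes, and 16 sterol genes were called lower in astrocytes, with 2 fatty acid genes. With WT replicates 1 and 4 both left out and no sex covariate, 12 sterol and 4 fatty acid genes were called in microglia and 13 and 1 in astrocytes. With both left out and sex kept, the counts were 5 and 3 in microglia and 3 and 0 in astrocytes, where 17 sterol genes and 1 fatty acid gene had an unadjusted p under 0.05. A few calls were lost without other single libraries. Hsd17b7 in microglia did not pass without any one of WT replicates 3 and 4 and APP replicates 1, 3, 4 and 5, at log2 differences of 0.53 to 0.63. In astrocytes Pmvk (log2 -0.40), Lss (-0.55) and Acly (-0.40) did not pass without APP replicate 1, nor Srebf2 (-0.48) and Acly (-0.33) without APP replicate 2. The difference between the responses did not pass without APP replicate 1 for Mvk (0.96), Lss (0.62) and Acly (0.68), and for Acat2 without APP replicate 3 (0.63) or 4 (0.60). Males (3 WT, 1 APP) and females (1 WT, 4 APP) were also looked at apart. All 12 sterol genes called in microglia and all 18 called in astrocytes lay in the called direction in both sexes. So did the 5 and 3 fatty acid genes. These genes were called in the same libraries, and each sex has 1 mouse in 1 group, so this is no separate test. Over all members, called or not, 20 of the 24 sterol and 6 of the 10 fatty acid genes had the same direction in both sexes in microglia. In astrocytes 22 and 7 did.

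Among further genes of sterol and isoprenoid metabolism, Lbr, a nuclear envelope protein that is also a sterol C-14 reductase, fell in microglia (log2 -0.84 ± 0.095, adjusted p = 3.6e-05). Dhdds and Nus1, the subunits of the dolichol-making enzyme, rose slightly there (log2 0.26 ± 0.081 and 0.30 ± 0.086). Npc2, which hands cholesterol to Npc1 in the lysosome, rose in microglia from 423 ± 12.8 to 1059 ± 75.4 CPM (log2 1.30 ± 0.087, adjusted p = 7.2e-07), and Npc1 fell in astrocytes (log2 -0.65 ± 0.14, adjusted p = 0.016). Of 10 genes for SREBP processing and the turnover of membrane proteins by sterols, 3 fell in microglia, beside 19.2% of all genes tested there. They were the ubiquitin ligases Rnf145 and Rnf139 and the membrane protein Erlin1 (log2 -0.59 ± 0.10, -0.42 ± 0.078 and -0.47 ± 0.13). In astrocytes 3 of the 10 fell and 2 rose, beside 13.5% and 12.1% of all genes tested there. Among those that fell were Rnf139 and Paqr3 (log2 -0.52 ± 0.12 and -0.84 ± 0.19). Those that rose were the site-1 protease Mbtps1 (log2 0.47 ± 0.12) and Erlin2 (log2 0.30 ± 0.073).

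Genes that handle finished cholesterol did not share one direction. Ch25h, which makes 25-hydroxycholesterol, an oxysterol that blocks SREBP processing, was at 1.52, 1.21, 1.08 and 1.97 CPM in WT and 44.5, 43.7, 40.4, 43.4 and 45.0 CPM in APP microglia (log2 4.91 ± 0.15, adjusted p = 1.8e-09). Soat1, which esterifies cholesterol for storage, rose in microglia (log2 0.96 ± 0.093) and fell in astrocytes (log2 -0.61 ± 0.15). The liver X receptor targets Abca1, a cholesterol exporter, and Mylip, a ubiquitin ligase, fell in microglia (log2 -0.84 ± 0.11 and -0.33 ± 0.077). Of the 10 genes of this list, 3 rose and 2 fell in microglia, beside 19.1% and 19.2% of all genes tested there. In astrocytes 2 rose and 2 fell, beside 12.1% and 13.5% of all genes. There the exporter Abcg1 rose (log2 1.43 ± 0.40) and the cholesterol 24-hydroxylase Cyp46a1 fell (log2 -0.68 ± 0.13). Ch25h in astrocytes was near 0, at 0 to 0.125 CPM in WT and 0.214 to 1.11 CPM in APP.

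Among 23 further genes of fatty acid synthesis and activation, 7 of the 21 tested rose and 1 fell in microglia. The shares over all genes tested there were 19.1% and 19.2%. In astrocytes 1 rose and 12 fell, beside 12.1% and 13.5% of all genes. Hacd2, a dehydratase of fatty acid elongation, rose in microglia from 21.5 ± 4.04 to 57.8 ± 4.71 CPM (log2 1.53 ± 0.14, adjusted p = 5.7e-06). Hsd17b12, the reductase of the same cycle, the activating enzyme Acsl5 and the citrate carrier Slc25a1 rose there as well (log2 0.60 ± 0.087, 0.55 ± 0.093 and 0.52 ± 0.093). In astrocytes the falls included the elongase Elovl2 (log2 -1.003 ± 0.17), the activating enzymes Acsbg1 and Acsl3 (log2 -0.84 ± 0.14 and -0.81 ± 0.14) and Hacd3 (log2 -0.66 ± 0.13). In the direct test of the difference between cell types, Hacd2 (log2 2.29 ± 0.21), Elovl5 (1.04 ± 0.20) and Hsd17b12 (1.04 ± 0.12) were higher in the microglial response.

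In WT mice both branches were far lower in microglia than in astrocytes, with a few exceptions. On the scale set over all 18 libraries, 21 of the 24 sterol genes and 9 of the 10 fatty acid genes were called lower in microglia, beside 42.3% of the 15550 genes tested. Ebp and Insig2 were called higher, beside 37.9% of genes, and Ggps1 and Acly did not pass. The median log2 difference was -2.72 for the sterol genes and -3.90 for the fatty acid genes, beside -0.09 over all genes. The largest sterol differences were those of Sqle (23.9-fold lower in microglia, log2 -4.58 ± 0.26), Msmo1 (16.6-fold, log2 -4.06 ± 0.19) and Fdft1 (13.3-fold, log2 -3.73 ± 0.17). Fads2 and Scd1 had the largest differences of the fatty acid branch (36.6-fold and 25.3-fold lower), and Srebf1 itself was 12.4-fold lower (log2 -3.63 ± 0.18, adjusted p = 3.3e-11). Acly was at 214, 241, 239 and 245 CPM in WT microglia and 221, 209, 213 and 234 CPM in WT astrocytes on this scale, in overlapping groups (log2 0.09 ± 0.10, adjusted p = 0.41). Ebp was at 30.2, 32.3, 31.8 and 41.9 CPM in WT microglia and 18.2, 19.9, 19.2 and 15.5 CPM in WT astrocytes (log2 0.90 ± 0.12, adjusted p = 4.2e-06), which made it the one sterol enzyme that was clearly higher in microglia. Insig2 differed little (log2 0.22 ± 0.084, adjusted p = 0.027) and did not pass with the mouse as a block, under which 22 sterol and 9 fatty acid genes were called. Genes around the pathway were not uniformly low in microglia: the hydroxylase Cyp7b1 and the elongase Elovl5 were lower there (log2 -5.32 ± 0.47 and -3.31 ± 0.14), while the exporter Abcg1 and the ligase Mylip were higher (log2 4.15 ± 0.31 and 4.83 ± 0.23).

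**Figure D5:**
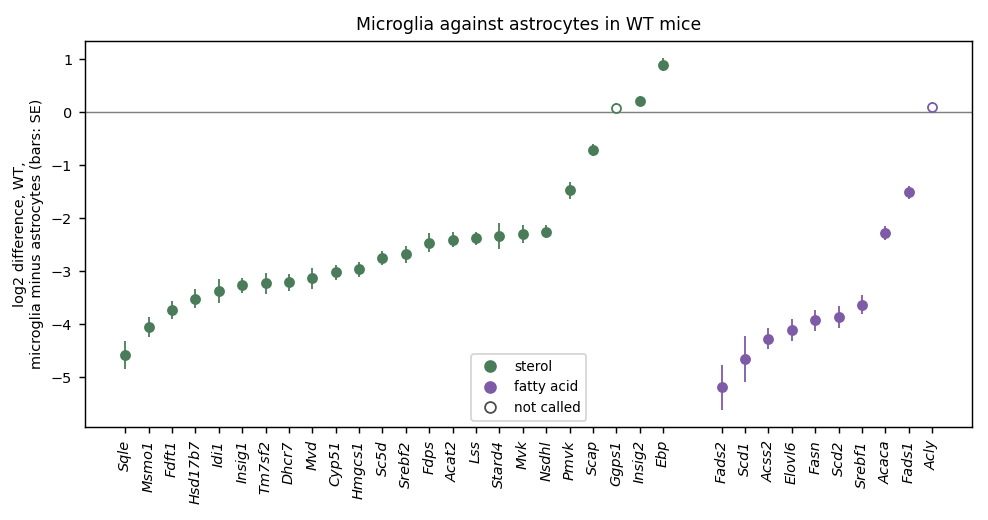
Log2 difference between microglia and astrocytes of WT mice (y axis, with the standard error) for each gene (x axis), sorted within the sterol branch (green) and the fatty acid branch (purple); open points did not pass the test. Only Ebp (0.90), Insig2 (0.22), Ggps1 (0.08) and Acly (0.09) lie above 0.

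Levels of different genes were compared per kilobase of exon, on the scale over all libraries. In WT astrocytes Msmo1 led the sterol branch at 263 ± 66.2 CPM per kilobase, followed by Srebf2 at 118 ± 19.9, Hmgcs1 at 107 ± 7.42 and Insig1 at 107 ± 36.4. The last 3 did not differ beyond their SDs. In WT microglia the order was another, with the escort Scap at 24.8 ± 0.861 CPM per kilobase first, then Ebp at 19.5 ± 3.05 and Srebf2 at 18.8 ± 2.69, of which Ebp and Srebf2 did not differ beyond their SDs. In APP microglia Srebf2 (33.8 ± 5.27) was first and Insig1 (27.0 ± 1.19) second. In the fatty acid branch Scd2 was first in all 4 groups, from 66.2 ± 20.5 CPM per kilobase in WT microglia to 929 ± 40.6 in APP astrocytes. Scd2 alone made up 53.6% of the summed CPM of the fatty acid branch in WT and 60.2% in APP astrocytes, and that sum overlapped between the groups, at 8550.2 to 10916 CPM in WT and 8186 to 9879 CPM in APP. In microglia the fatty acid sum was 753, 1059, 951 and 896 CPM in WT and 1425, 1196, 1311, 1625 and 1516 CPM in APP, with no overlap. Acaca moved from the eighth to the fifth place of the branch in microglia, from 2.23 ± 0.294 to 20.5 ± 2.52 CPM per kilobase.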

How the data were processed

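RNA of sorted microglia and astrocytes of 9 mice was sequenced as 18 libraries. The deposited tables hold raw counts of reads per gene, 1 table for each cell type, which the authors made from reads that, per the submitters' processing notes, passed through FastQC 0.11.8, Trimmomatic 0.39, STAR 2.7.3a and SAMtools 1.9 on the build mm10, with edgeR 3.32.1 and limma 3.46.0 named as well. Which tool and annotation were used for counting, and whether it used the strand, is not stated in the labels or notes. Normalized tables were deposited too and not used, and per the file names outlier libraries had been left out of the tables. Columns of samples outside the series numbered 0.

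Here, edgeR 4.0.16 (R 4.3.3) was run on the counts with TMM scaling, filterByExpr by group (minimum count 10), its quasi-likelihood test with sex as a covariate, and Benjamini-Hochberg adjustment over all genes tested, with a threshold of 0.05. Microglia and astrocytes were fitted apart for APP against WT, and all 18 libraries together for the cell types and for the difference between their responses. The 2 libraries of a mouse share the animal, and their deviations from the group means correlated at 0.0579 to 0.334 over the 9 mice, with 7 matching their own mouse best. DESeq2 1.42.0, limma voom 3.58.1, other filters, no TMM, no sex covariate, replicate blocks, an endothelial covariate and left-out libraries were tried as alternatives. The scripts' test was tested on simulated data. Depth, from 8834866 to 22522407 counts a library, limits the precision of members with few counts, and covers counting error only. Such members in microglia include Fdps, Stard4, Idi1, Pmvk, Mvd, Tm7sf2 and Elovl6.

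The 34 members and the other gene lists were chosen with earlier results of these data known. All members are named. Of each other pathway list up to 4 genes called in a comparison, by adjusted p, are named, except a few that are not reported here, and marker lists are given by their sums and defining genes. Promoters and gene positions come from RefSeq on GRCm38.p6, and exon lengths and overlaps from GENCODE M21.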

Additional observations from a re-analysis of the deposited data

Results flagged for a closer look

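Of 144 groups of 4 or 5 libraries tested, 5 held a library far from the others relative to the range of its group. Chance gives about 1 in 20, so that these 5 are no more than chance gives. Pmvk was highest in WT microglia replicate 2 (6.19 CPM) and in APP microglia replicate 2 (11.7 CPM). WT microglia replicate 4 was highest for Nsdhl (12.4 CPM) and for Ebp (39.9 CPM). Scd1 was lowest in WT astrocytes replicate 2 (388 CPM), though the other WT libraries were at 413 to 414 CPM.

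The response to the APP genotype differed between microglia and astrocytes by the test of the interaction for 26 members, each time higher in microglia. The log2 differences of the mevalonate and isoprenoid steps were 0.73 for Acat2, 1.60 for Hmgcs1, 0.95 for Mvk, 1.32 for Pmvk, 1.86 for Mvd, 2.02 for Idi1 and 1.71 for Fdps. Those of the squalene steps were 1.70 for Fdft1, 1.45 for Sqle and 0.85 for Lss. After lanosterol they were 2.12 for Cyp51, 1.21 for Tm7sf2, 1.94 for Msmo1, 1.19 for Nsdhl, 1.82 for Hsd17b7, 1.79 for Sc5d and 2.20 for Dhcr7. Among the regulators and carriers they were 1.37 for Srebf2, 2.24 for Insig1 and 1.47 for Stard4. In the fatty acid branch they were 1.14 for Srebf1, 0.66 for Acly, 0.96 for Acss2, 3.37 for Acaca, 1.10 for Fasn and 1.07 for Scd2.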

How the results depend on the processing

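Each result was recomputed under 19 alternatives, or 20 for APP against WT in astrocytes. No member that was called changed direction under those run. The counts for the cell types in WT mice stayed within 1.5 times of the reported ones. With WT replicates 1 and 4 left out, the genes, sterol members and fatty acid members called were 2330, 5 and 3 in microglia, 142, 3 and 0 in astrocytes, and 922, 9 and 1 for the difference between the responses. With each library left out in turn, the genes called ranged from 2641 to 5085 in microglia, from 34 to 4217 in astrocytes and from 855 to 3303 for the difference between the responses. The sterol members ranged from 6 to 13, from 0 to 19 and from 11 to 20, and the fatty acid members from 0 to 3 in astrocytes and from 1 to 7 for the difference, each lowest without WT replicate 1. In astrocytes 1245 genes were called with no sex covariate and WT replicate 1 left out, and 613 genes with 1 fatty acid member when replicate 4 was left out too. No TMM left 1 fatty acid member there, and the endothelial covariate left 415 genes and 1 fatty acid member; the causes were not tested. WT and APP mice with the same replicate number are different animals, whose deviations correlated at -0.259 to -0.00433 in microglia and -0.319 to 0.0594 in astrocytes, with 0 of 4 matching best. With that number as a replicate block, 4542 genes were called in microglia, with 12 sterol and 6 fatty acid members, and 1907 in astrocytes, with 15 and 1. A replicate block for the mouse gave 2901 genes for the difference between the responses. Levels of a few CPM, as for Fdps, Stard4, Idi1, Pmvk, Mvd, Tm7sf2 and Elovl6 in microglia, are limited by depth.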
